A study of Mus musculus with 7 samples.

Results

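The renin-angiotensin system of the mouse kidney was followed through 7 genes, Agt, Ren1, Atp6ap2, Ace, Agtr1a, Enpep and Mme, which were chosen by symbol. All 7 were found among the 17537 genes listed, and all 7 were among the 13976 genes tested, those with at least 1 CPM (counts per library scaled to a common total, the expression level used here) in at least 2 libraries. Whole-kidney RNA was selected for poly(A) and sequenced with a strand-keeping kit, with 1 library per mouse. The control group (C, replicates 2, 8 and 9) consisted of wild-type C57BL/6 mice without diabetes, given citrate buffer. DM-22 mice (replicates 1 and 2) were wild-type C57BL/6 mice made diabetic with streptozotocin, a toxin of the insulin-producing beta cells, at 60 mg/kg on 5 days, and remained hyperglycemic until the study ended at week 22. DM+SGLT2i mice (replicates 1 and 2) received the same toxin and, from week 16 and for 6 weeks, the glucose transport inhibitor dapagliflozin at 25 mg/kg in the drinking water. No allele was altered in any group, the mice started at 8 to 10 weeks of age, and the labels describe males while the study's methods mention both sexes. Streptozotocin diabetes models loss of insulin, and dapagliflozin in nondiabetic mice was not analysed here. The comparisons ask whether these genes differed in diabetic kidneys and whether they differed after glucose was lowered.

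In this hormone system, angiotensinogen (Agt) is the precursor protein from which the protease renin (Ren1) releases angiotensin I. Angiotensin-converting enzyme (Ace) turns it into angiotensin II, which acts on the receptor Agtr1a to constrict vessels and retain sodium. In the kidney, renin is stored by juxtaglomerular cells of the arteriole entering the glomerulus, angiotensinogen is made by the proximal tubule besides the liver, and the tubule's brush border carries Ace and the peptidases Enpep and Mme that trim or degrade angiotensins. Atp6ap2, the (pro)renin receptor, binds renin and is also an accessory subunit of the proton pump of lysosomes and other acidic compartments. Drugs against Ace and Agtr1 are a mainstay of treatment in diabetic kidney disease.

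The promoters of Ren1, Agt and Ace are shown because these genes had the widest ranges over the 7 libraries, and that of Atp6ap2 because it had the narrowest. Each stretch is the 100 bases just before the RefSeq start site on build GRCm38.p6, 5′ to 3′ on the gene's own strand, and capitals mark TATAAA or, where it lies on the other strand, TTTATA. The windows are chr1:133350574-133350673 on the plus strand for Ren1, chr8:124569707-124569806 on the minus strand for Agt, chr11:105967848-105967947 on the plus strand for Ace, and chrX:12587659-12587758 on the plus strand for Atp6ap2.
Ren1: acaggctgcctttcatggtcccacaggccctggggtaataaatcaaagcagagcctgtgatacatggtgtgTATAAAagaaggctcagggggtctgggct
Agt: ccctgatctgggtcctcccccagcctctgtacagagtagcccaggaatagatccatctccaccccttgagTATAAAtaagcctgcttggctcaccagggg
Ace: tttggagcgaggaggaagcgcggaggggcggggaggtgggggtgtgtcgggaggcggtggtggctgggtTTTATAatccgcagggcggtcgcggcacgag
Atp6ap2: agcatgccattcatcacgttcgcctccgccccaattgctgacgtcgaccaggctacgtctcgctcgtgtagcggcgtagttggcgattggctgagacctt

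The RefSeq promoter table matched 6 of the 7 genes with 9 entries, each spanning 250 bases before the start and 50 from it on. TATAAA began 29 bases before the start in Ren1 and 30 bases before it in Agt, and in Ace its reverse complement began 31 bases before the start. Enpep held the reverse complement at 52 bases and at 1 base before its start, whereas the entries of Mme, Atp6ap2 and the internal start of Ace held none. Among all 32851 promoters of this length, 13.6% held TATAAA on either strand and 8.32% on the gene's own strand. Ren1 and Agt each had 1 CpG dinucleotide in 300 bases, against 24 in Atp6ap2 and a median of 7 over all promoters. The Ace entry shown above had 29, and that of its internal start had 2. CCAAT occurred on either strand in 37.4% and GGGCGG in 35.7% of all promoters, and the Atp6ap2 window held both while those of Ren1 and Agt held neither. A match describes letters in a window, not a binding site.

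Between 46456125 and 56541594 reads fell on listed genes per library. Each of the 7 genes was covered by at least 1358 reads in every library. Counting error was not compared with the differences between mice. Control replicate 2 stood apart from the other controls. Of the 2907 genes that were lower in all 4 diabetic libraries than in control replicates 8 and 9, 97.7% were also lower in control replicate 2, and of the 2106 higher genes 95.3% were also higher there. These genes were picked by where control replicates 8 and 9 lay, which alone makes high shares likely for any further library. No share to set beside them was computed. Cdkn1a, which encodes the cell cycle inhibitor p21, was at 72.7 CPM in control replicate 2, at 4.63 and 5.36 CPM in replicates 8 and 9, and at 52.6 to 123 CPM in the diabetic libraries. Whether the label of control replicate 2 is right was not tested, and its group is given as labelled throughout. The 7 genes are therefore tested with all 3 controls, the main analysis, and with control replicates 8 and 9 alone. Markers of proximal tubule, thick ascending limb, collecting duct, podocytes and endothelium were detected in all libraries, and the adrenal markers in the file summed to at most 3.61 CPM.

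Agt, on chromosome 8 (GRCm38, 124556534 to 124569706, minus strand), varied 6.56-fold between the lowest and highest library, a range reached by 2.58% of the genes tested. It was at 349, 74.7 and 62.5 CPM in control replicates 2, 8 and 9, at 262 and 53.1 CPM in DM-22 replicates 1 and 2, and at 147 and 164 CPM in DM+SGLT2i replicates 1 and 2. The highest value was thus in the library labelled control replicate 2 and the lowest in a diabetic mouse, and all groups overlapped as labelled. Group means were 162 ± 162 CPM in C (SD, n = 3), 157 ± 147 CPM in DM-22 (SD, n = 2) and 156 ± 12.2 CPM in DM+SGLT2i (SD, n = 2). The DM+SGLT2i mice differed from each other 1.12-fold, the DM-22 mice 4.92-fold. With all 3 controls the log2 fold change in DM-22 was 0.00 with a 95% interval of -2.15 to 2.16, and in DM+SGLT2i 0.40 with an interval of -1.76 to 2.56. Fold changes compare mean log2 levels, so that their sign can differ from that of the difference in mean CPM, as it does here. With control replicates 8 and 9 these values became 0.79 (-0.89 to 2.46) and 1.18 (-0.50 to 2.86), and neither passed the threshold (limma, Benjamini-Hochberg adjusted p = 0.495 and 0.408). Against all 3 controls the DM-22 value of Agt was -1.14 without DM-22 replicate 1 and 1.15 without DM-22 replicate 2. Serpina1a, a liver marker, moved alongside, with 376, 160 and 144 CPM in the controls, 573 and 21.8 CPM in DM-22 and 295 and 267 CPM in DM+SGLT2i. The other liver markers in the file stayed low, with Alb at 8.10 to 14.4 CPM and Apoa1 at 0.171 to 1.73 CPM in the 7 libraries. Markers of the early proximal tubule (segments S1 and S2, 6 genes, none at 0) summed to 5472 CPM in control replicate 2 and 5721 CPM in DM-22 replicate 1, the libraries with most Agt, and to between 9424 and 15279 CPM elsewhere. The tubular injury markers Havcr1, Lcn2 and Krt20 (3 of 3 in the file, none at 0) summed to 108 CPM in control replicate 2, 57.2 CPM in DM-22 replicate 1 and 38.5 and 37.6 CPM in DM+SGLT2i, against 2.97 CPM in each of control replicates 8 and 9 and 4.72 CPM in DM-22 replicate 2. The part of these markers' cells and of tubular injury in the Agt values was not tested. In whole tissue, fewer cells of a type and less RNA per cell cannot be told apart, here or for any gene that follows.

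Ren1, on chromosome 1 (133350510 to 133360325, plus strand), had the widest range of the 7 genes, 12.3-fold between the lowest and highest library, which 0.944% of the genes tested reached. Expression was 80.1, 51.4 and 77.7 CPM in control replicates 2, 8 and 9, 24.4 and 300.2 CPM in DM-22 replicates 1 and 2, and 45.9 and 62.3 CPM in DM+SGLT2i replicates 1 and 2. Both extremes therefore came from the same group, the untreated diabetic mice, and 0.343% of the genes tested differed as much between these mice. Group means were 69.7 ± 15.9 CPM in C (SD, n = 3), 162 ± 195 CPM in DM-22 (SD, n = 2) and 54.1 ± 11.6 CPM in DM+SGLT2i (SD, n = 2). The log2 fold change was 0.33 in DM-22 (95% interval -1.90 to 2.56) and -0.35 in DM+SGLT2i (-2.59 to 1.88) against all 3 controls, and 0.44 and -0.24 against control replicates 8 and 9. Between DM+SGLT2i and DM-22 the log2 fold change was -0.68 (-3.13 to 1.76). It was -2.48 without DM-22 replicate 1 and 1.11 without DM-22 replicate 2. Without DM-22 replicate 2 the log2 fold change of DM-22 against C was -1.47, and without DM-22 replicate 1 it was 2.13.

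Being lowest of all in DM-22 replicate 1 and highest in replicate 2, as Ren1 was, held for 3.69% of the genes tested, and among the genes of the wider lists for Akr1b7, Nos1, Klk1, Ctsa and Prep. Of the 9 tested genes of the juxtaglomerular list, 6 were higher in DM-22 replicate 2 than in replicate 1 and 3 were lower, namely Gja4, Ptger4 and Rbpj, with the connexin Gja4 at 11.8 CPM in replicate 1, the highest of all libraries, and 4.65 CPM in replicate 2. Akr1b7, an aldo-keto reductase made by renin cells, was at 1.30 CPM in DM-22 replicate 1 and 5.87 CPM in replicate 2, and at 2.37 to 3.59 CPM in the other 5 libraries. Nos1, the neuronal nitric oxide synthase of the macula densa, was at 0.666 and 3.54 CPM in these mice and at 1.20 to 2.14 CPM elsewhere. Klk1, the kidney kallikrein, a protease made by distal tubule cells, was at 1136 and 3879 CPM in these mice and at 1334 to 2291 CPM elsewhere. All 5 podocyte markers were lowest in DM-22 replicate 1 and highest in replicate 2. Their sum was 300 and 771 CPM in these mice, 426 to 543 CPM in C and 544 and 574 CPM in DM+SGLT2i, and none of the 5 was at 0 in any library. Thick ascending limb markers went the other way, with a sum of 12907 CPM in DM-22 replicate 1 and 3285 CPM in replicate 2. The early proximal tubule (S1 and S2) sum was 5721 and 14728 CPM in these mice, and that of mesangium, pericytes and smooth muscle, the lineage of renin cells, was 188 and 136 CPM. The part of these markers' cells in the Ren1 values was not tested.

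**Figure D1:**
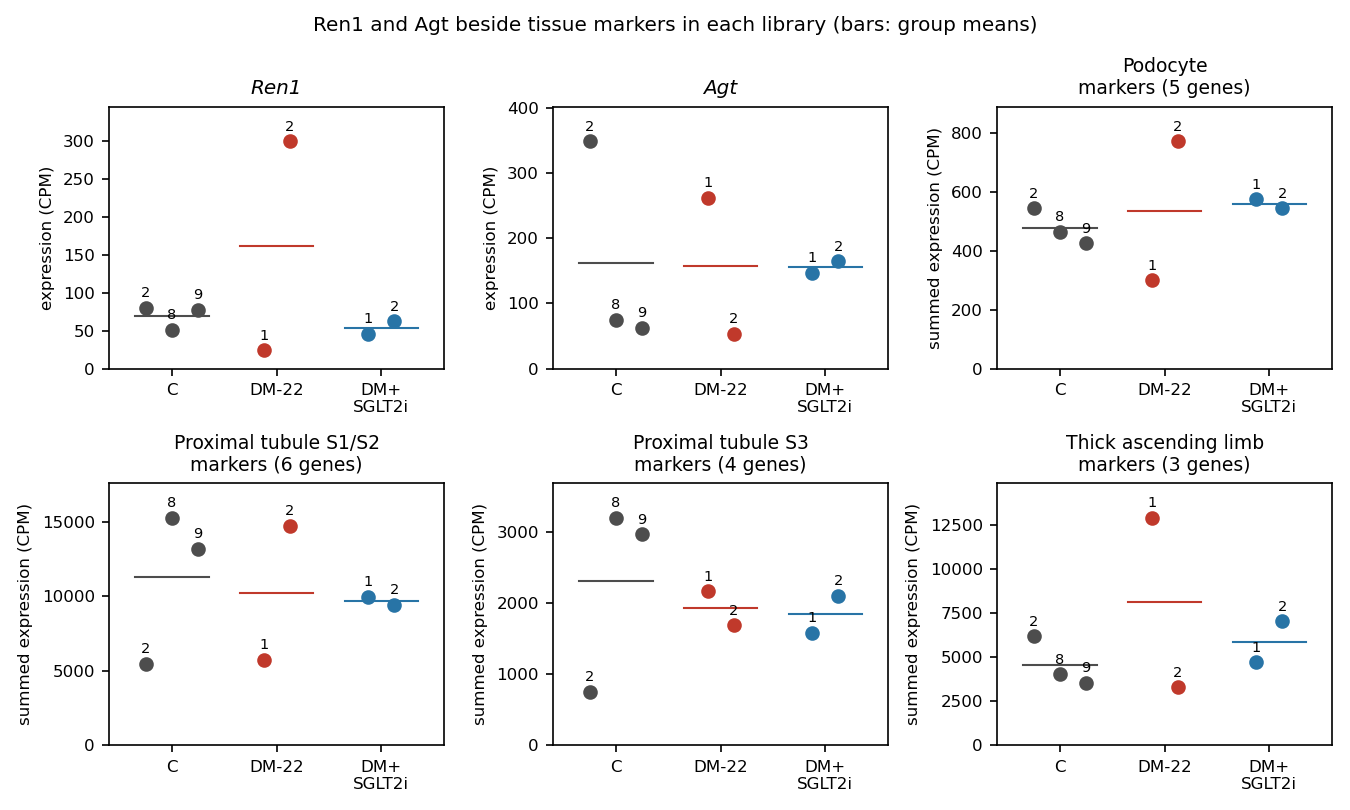
Ren1 and Agt expression in CPM, and the summed CPM of 4 marker lists, in each library by group, with replicate numbers at the points and group means as bars (C n = 3, DM-22 n = 2, DM+SGLT2i n = 2). Ren1 and the podocyte sum were both lowest in DM-22 replicate 1 (24.4 and 300 CPM) and highest in replicate 2 (300.2 and 771 CPM), while the thick ascending limb sum had the opposite order in these mice.

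Atp6ap2, on chromosome X (12587801 to 12617049, plus strand), varied least, 1.49-fold over the 7 libraries, and 64.8% of the genes tested had as large a range. It was at 147, 112 and 105 CPM in control replicates 2, 8 and 9, at 131 and 156 CPM in DM-22 replicates 1 and 2, and at 108 and 142 CPM in DM+SGLT2i replicates 1 and 2. The groups overlapped. Group means were 121 ± 22.6 CPM in C (SD, n = 3), 144 ± 17.2 CPM in DM-22 (SD, n = 2) and 125 ± 23.6 CPM in DM+SGLT2i (SD, n = 2). Its log2 fold change in DM-22 was 0.25 with an interval of -0.24 to 0.75 against all 3 controls, and 0.40 with an interval of -0.03 to 0.83 against control replicates 8 and 9 (limma adjusted p = 0.809 and 0.220).

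Ace, on chromosome 11 (105967945 to 105989964, plus strand), was highest in control replicates 8 and 9 and lowest in control replicate 2. Expression was 174, 485 and 430 CPM in control replicates 2, 8 and 9, 379 and 308 CPM in DM-22 replicates 1 and 2, and 249.9 and 282 CPM in DM+SGLT2i replicates 1 and 2. All 4 diabetic libraries lay below control replicates 8 and 9 and above control replicate 2. Group means were 363 ± 166 CPM in C (SD, n = 3), 344 ± 50.5 CPM in DM-22 (SD, n = 2) and 266 ± 22.8 CPM in DM+SGLT2i (SD, n = 2), against 458 ± 39.0 CPM in control replicates 8 and 9 (SD, n = 2). Lying below both of these controls in all 4 diabetic libraries was common, since 20.8% of the genes tested did so, and 15.1% lay above both. With all 3 controls the log2 fold change was 0.04 in DM-22 (95% interval -0.997 to 1.09) and -0.32 in DM+SGLT2i (-1.36 to 0.72), the former opposite in sign to the difference in mean CPM. With control replicates 8 and 9 it was -0.42 in DM-22 (-0.84 to 0.01), -0.78 in DM+SGLT2i (-1.21 to -0.36) and -0.60 in the 4 diabetic libraries together (-0.97 to -0.23). None of these passed the adjusted threshold, with limma adjusted p = 0.203, 0.131 and 0.0965, the last being the smallest value of any of the 7 genes in any comparison or setting.

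Markers of the straight proximal tubule (segment S3) had a similar order to Ace. The sum of the 4 S3 markers was 753, 3201 and 2965 CPM in control replicates 2, 8 and 9, 2166 and 1686 CPM in DM-22, and 1583 and 2099 CPM in DM+SGLT2i. Of these, Slc7a13, Slc22a7 and Atp11a were lower in all 4 diabetic libraries than in control replicates 8 and 9, as were 20.8% of the genes tested. Cyp7b1 ranged from 20.8 to 354 CPM in the diabetic libraries. The pattern was not particular to S3, since the S1 and S2 markers Slc5a12 and Lrp2 had it too. Slc5a2, Slc34a1, Cubn and Slc22a6, also of S1 and S2, overlapped these controls. No S3 marker was at 0 in any library, and the part of S3 abundance in the Ace values was not tested.

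Agtr1a, the main angiotensin II receptor, lies on chromosome 13 (30336441 to 30382867, plus strand). Expression was 35.4, 64.0 and 62.3 CPM in control replicates 2, 8 and 9, 34.0 and 48.7 CPM in DM-22 replicates 1 and 2, and 49.7 and 47.0 CPM in DM+SGLT2i replicates 1 and 2. Like Ace, and like 20.8% of the genes tested, it was below control replicates 8 and 9 in all 4 diabetic libraries. Control replicate 2 fell among the diabetic values. Group means were 53.9 ± 16.1 CPM in C (SD, n = 3), 41.4 ± 10.4 CPM in DM-22 (SD, n = 2) and 48.4 ± 1.96 CPM in DM+SGLT2i (SD, n = 2). The log2 fold change in DM-22 was -0.35 against all 3 controls (95% interval -1.06 to 0.35) and -0.63 against control replicates 8 and 9 (-1.08 to -0.18, limma adjusted p = 0.124). Without DM-22 replicate 1 it was -0.096 against all 3 controls. In DM+SGLT2i the values were -0.11 and -0.38, with intervals of -0.81 to 0.60 and -0.83 to 0.07. Agtr2, the other angiotensin II receptor, was barely detected, at 0.0421 to 0.252 CPM, and was not among the genes tested.

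Enpep, which encodes aminopeptidase A, the enzyme that shortens angiotensin II to angiotensin III, lies on chromosome 3 (129269175 to 129332720, minus strand). It was at 204, 191 and 169 CPM in control replicates 2, 8 and 9, at 115 and 204 CPM in DM-22 replicates 1 and 2, and at 234 and 189 CPM in DM+SGLT2i replicates 1 and 2. DM-22 replicate 1 was the lowest library, and the other 6 lay within 169 to 234 CPM. Group means were 188 ± 17.6 CPM in C (SD, n = 3), 159 ± 62.5 CPM in DM-22 (SD, n = 2) and 212 ± 31.5 CPM in DM+SGLT2i (SD, n = 2). The log2 fold change was -0.29 in DM-22 (95% interval -0.91 to 0.33) and 0.16 in DM+SGLT2i (-0.46 to 0.78) against all 3 controls, and -0.23 and 0.22 against control replicates 8 and 9. It was 0.46 between DM+SGLT2i and DM-22 (-0.22 to 1.14, limma adjusted p = 0.881), 0.048 without DM-22 replicate 1 and 0.87 without DM-22 replicate 2.

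Mme, which encodes neprilysin, a peptidase that degrades angiotensins, natriuretic peptides and other small peptides, lies on the same chromosome (63241537 to 63386030, plus strand). Its values were 207, 212 and 166 CPM in control replicates 2, 8 and 9, 301 and 118 CPM in DM-22 replicates 1 and 2, and 215 and 254 CPM in DM+SGLT2i replicates 1 and 2. Both extremes again came from the DM-22 mice, in the order opposite to Ren1. This order of extremes held for 4.76% of the genes tested, and 5.78% differed as much between these mice. Group means were 195 ± 25.5 CPM in C (SD, n = 3), 209.5 ± 130 CPM in DM-22 (SD, n = 2) and 235 ± 27.0 CPM in DM+SGLT2i (SD, n = 2). Both DM+SGLT2i libraries exceeded all 3 controls, narrowly in replicate 1, as did 5.67% of the genes tested, while 6.59% lay below all 3. The log2 fold change in DM-22 was -0.04 against all 3 controls (95% interval -0.95 to 0.86), again opposite in sign to the difference in mean CPM. It was -0.72 without DM-22 replicate 1 and 0.63 without DM-22 replicate 2. In DM+SGLT2i it was 0.27 (-0.64 to 1.17) and, against control replicates 8 and 9, 0.32 (-0.74 to 1.37). Mep1b, a subunit of the brush border protease meprin, shared the extremes of Mme, at 357 and 54.3 CPM in DM-22 replicates 1 and 2 and at 126 to 229 CPM elsewhere. The ratio of Mme to Enpep was 2.62 and 0.579 in DM-22 replicates 1 and 2 and between 0.921 and 1.34 in the other libraries, with a log2 difference of 0.18 between diabetic libraries and all 3 controls (two-sided exact permutation test, p = 0.714) and of 0.17 from control replicates 8 and 9 (exact permutation p = 0.867, a design whose smallest possible p is 0.0667).

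**Figure D2:**
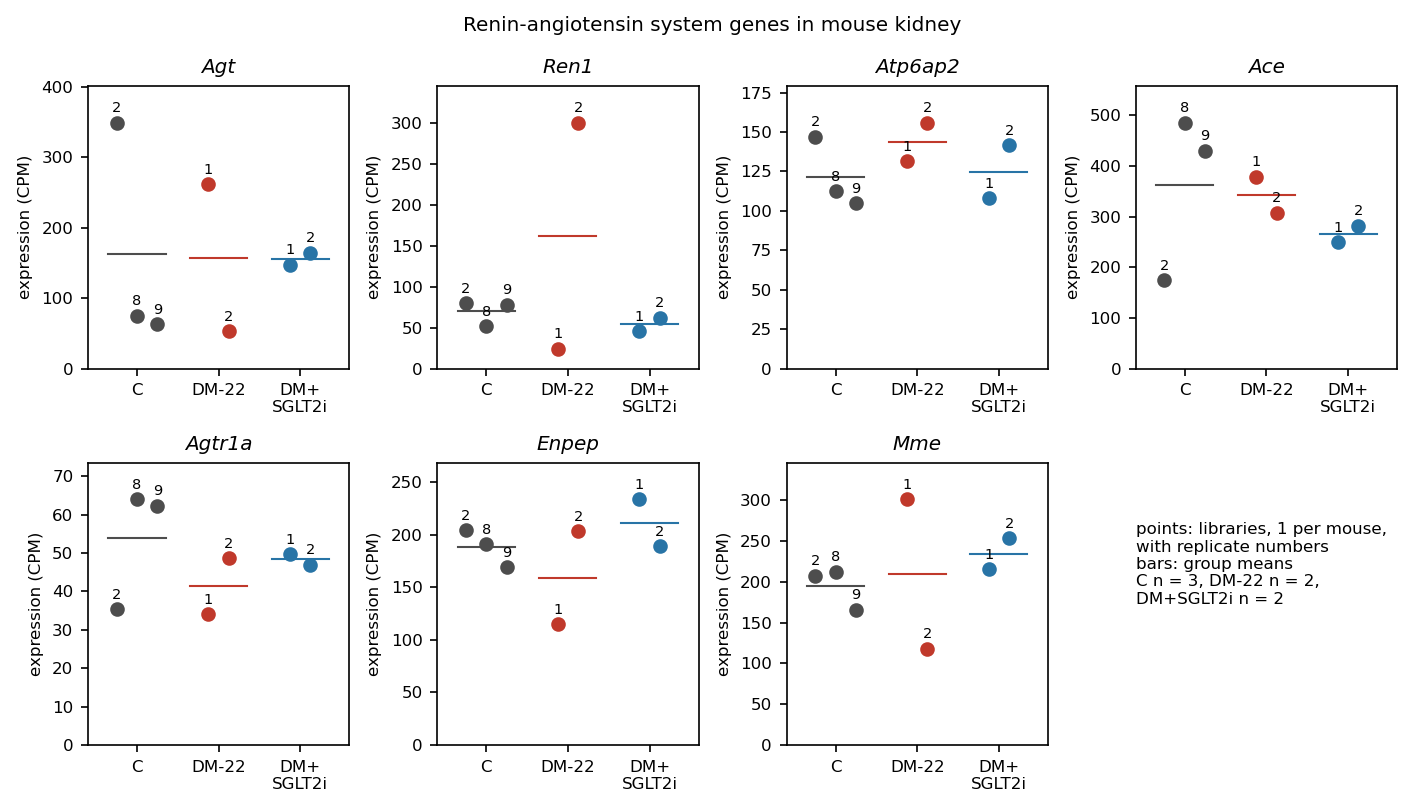
Expression in CPM of the 7 genes in each library, by group, with replicate numbers at the points and group means as bars (C n = 3, DM-22 n = 2, DM+SGLT2i n = 2). The DM-22 mice held both extremes of Ren1 (24.4 and 300.2 CPM) and of Mme (301 and 118 CPM), and Ace and Agtr1a were highest in control replicates 8 and 9.

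Per kilobase of exon, the unit in which levels of different genes can be set side by side (RPKM), the median over the 7 libraries was 77.8 for Agt, 58.2 for Ace, 50.2 for Atp6ap2, 40.6 for Enpep, 37.6 for Ren1, 18.4 for Mme and 17.5 for Agtr1a. Neighbours in this order overlapped in their ranges over libraries, so their order is not firm. Agtr1a, at 12.2 to 23.0 RPKM, lay below the 24.5 to 49.7 RPKM of Enpep in every library. The first place changed between mice. Agt led in control replicate 2 at 184 RPKM, in DM-22 replicate 1 at 138 RPKM and in DM+SGLT2i replicates 1 and 2 at 77.8 and 86.9 RPKM, Ace led in control replicates 8 and 9 at 91.8 and 81.4 RPKM, and Ren1 led in DM-22 replicate 2 at 181 RPKM.

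None of the 7 genes passed an adjusted p of 0.05 in any comparison, with either set of controls. With all 3 controls, limma called 0 of the 13976 genes in each of the 4 comparisons, which is 0.0% of them, and its voom version also called 0. The unadjusted p was under 0.05 for 4.47% of all genes in DM-22 against C, 1.08% in DM+SGLT2i against C, 2.04% in the 4 diabetic libraries against C and 3.91% in DM+SGLT2i against DM-22, and for none of the 7. With control replicates 8 and 9, limma called 0.0143%, 0.122%, 0.2% and 0.0% of the genes in the same order, and 25.2%, 17.9%, 24.8% and 10.8% had an unadjusted p under 0.05. Agtr1a was among the latter in DM-22, Ace in DM+SGLT2i, and both in the 4 diabetic libraries together, shares that lie near this background. The intervals for Agt and Ren1 spanned more than 2 log2 units on either side in several comparisons, while those for Atp6ap2 stayed within -0.75 to 0.83.

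**Figure D3:**
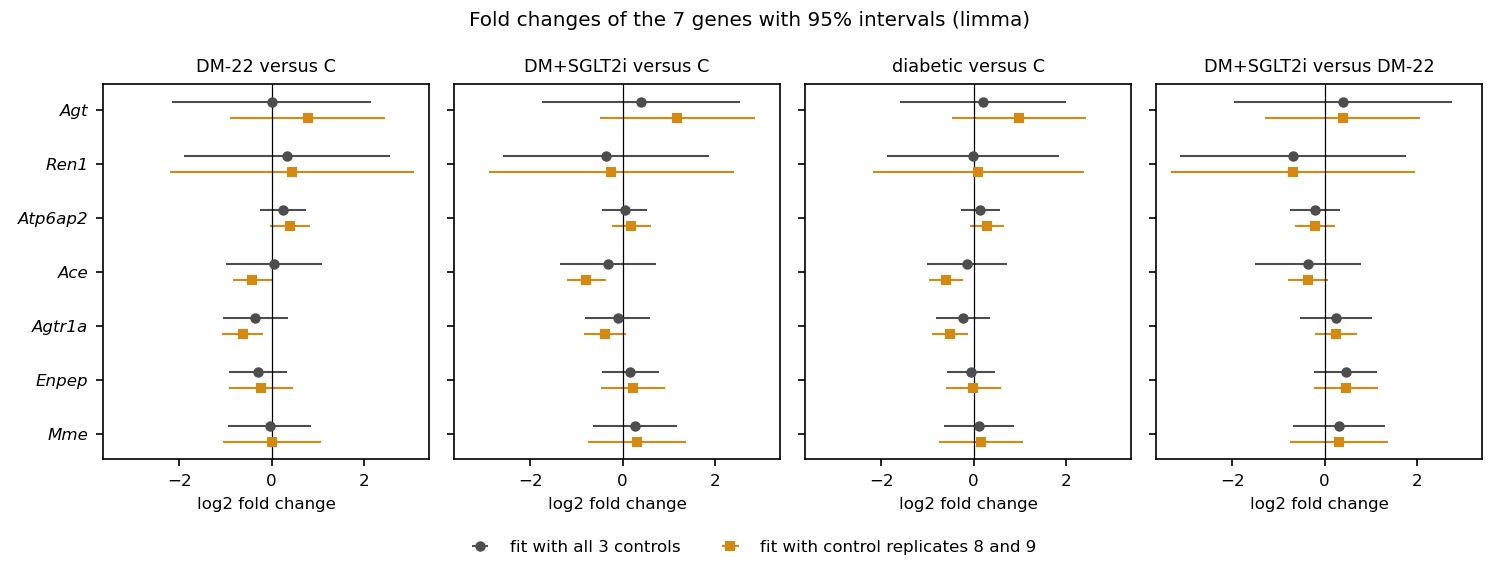
Log2 fold changes of the 7 genes with 95% intervals from limma in 4 comparisons, with all 3 controls (grey circles) and with control replicates 8 and 9 (orange squares). The intervals of Agt and Ren1 were the widest, and leaving out control replicate 2 moved Ace in DM-22 from 0.04 to -0.42 and Agt from 0.00 to 0.79.

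The wider list of angiotensin enzymes, receptors and binding proteins held 17 genes in the file, of which 16 were tested. None passed the adjusted threshold with either set of controls. With all 3 controls, 12 of the 16 had a log2 fold change above 0 in DM-22, with a median of 0.13 against 0.0045 over all genes tested, and 11 did in DM+SGLT2i, with a median of 0.046 against -0.013. With control replicates 8 and 9 these were 12 and 9 genes. Mas1, the receptor of angiotensin-(1-7), was at 1.66 and 1.78 CPM in the DM-22 mice and at 3.17, 2.69 and 2.74 CPM in control replicates 2, 8 and 9. It was one of the 9.29% of genes that lay below all 3 controls in both DM-22 libraries, with a log2 fold change of -0.60 (95% interval -1.09 to -0.11, limma adjusted p = 0.804). In the DM+SGLT2i libraries Mas1 was at 2.70 and 2.62 CPM, and the log2 fold change between DM+SGLT2i and DM-22 was 0.51 (-0.03 to 1.05, limma adjusted p = 0.881). Ctsd and Ctsb, lysosomal cathepsins of which cathepsin D can release angiotensin I, and Thop1, a peptidase that cleaves angiotensin I, were above control replicates 8 and 9 in all 4 diabetic libraries, 3 of the 16 against 15.1% of all genes tested. Ctsd was at 1612, 785 and 745 CPM in control replicates 2, 8 and 9, at 1046 and 1405 CPM in DM-22 and at 1159 and 1381 CPM in DM+SGLT2i, so that control replicate 2 was the highest library. Anpep, Dpp3 and Prep, which encode peptidases that act on angiotensins or other small peptides, were above all 3 controls in both DM+SGLT2i libraries, 3 of the 16 against 5.67% of all genes tested, with Anpep at 225 and 241 CPM against 163 to 206 CPM in C.

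Among the 9 tested genes of the juxtaglomerular list, 6 had a log2 fold change above 0 in DM-22 and 7 in DM+SGLT2i against all 3 controls, with medians of 0.090 and 0.16 (5 and 7 genes, with medians of 0.28 and 0.35, against control replicates 8 and 9), and none passed the adjusted threshold. Gja5, the connexin that couples renin cells, was at 8.98 and 9.25 CPM in the DM-22 mice, at 7.06, 3.43 and 4.06 CPM in control replicates 2, 8 and 9, and at 6.11 and 6.05 CPM in DM+SGLT2i. It was thus alike in the DM-22 mice whose Ren1 differed 12.3-fold. Both DM-22 libraries exceeded all 3 controls, as for 10.8% of the genes tested, and the log2 fold change was 0.90 (95% interval 0.20 to 1.61, limma adjusted p = 0.804). Against control replicates 8 and 9 it was 1.18 in DM-22 and 0.64 in DM+SGLT2i (limma adjusted p = 0.0826 and 0.161). Pde3b, a phosphodiesterase that breaks down cAMP, the messenger that stimulates renin release, was at 40.8 and 35.9 CPM in DM+SGLT2i against 31.4, 22.5 and 18.3 CPM in control replicates 2, 8 and 9, and at 21.3 and 34.4 CPM in DM-22 replicates 1 and 2. Like 5.67% of the genes tested, it was above all 3 controls in both DM+SGLT2i libraries. Markers of mesangium, pericytes and smooth muscle summed to 684 CPM in DM+SGLT2i replicate 1 and to 129 to 275 CPM elsewhere, with 5 of 6 above 0 in DM+SGLT2i against all 3 controls (median log2 fold change 1.28) and none at 0 in any library. Their part in the values of the juxtaglomerular list was not tested. DM+SGLT2i replicate 1 also held adipose markers, with Adipoq at 76.0 CPM against at most 3.31 CPM elsewhere, and their part in the Pde3b value was not tested.

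Downstream of angiotensin, 3 genes of aldosterone action were in the file, and none passed the adjusted threshold. Hsd11b2, the enzyme that shields the mineralocorticoid receptor from glucocorticoids, was at 347, 155 and 144 CPM in control replicates 2, 8 and 9, at 243 and 328 CPM in DM-22 and at 169 and 258 CPM in DM+SGLT2i. Nr3c2, the mineralocorticoid receptor itself, stayed between 21.4 and 28.1 CPM in all 7 libraries. Sgk1, a kinase induced by aldosterone, ranged from 56.4 to 206 CPM, with DM-22 replicate 1 highest. The collecting duct markers, from the cells in which these genes act, summed to 743 CPM in that library and 207 CPM in DM-22 replicate 2, and their part in the Sgk1 values was not tested. Of the 5 other brush border peptidases in the file, 1 had a log2 fold change above 0 in DM-22 and 2 in DM+SGLT2i against all 3 controls, with medians of -0.037 and -0.050. Against control replicates 8 and 9, 3 of the 5 were above 0 in each group, with medians of 0.10 and 0.024, and none passed the adjusted threshold with either set of controls.

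**Figure D4:**
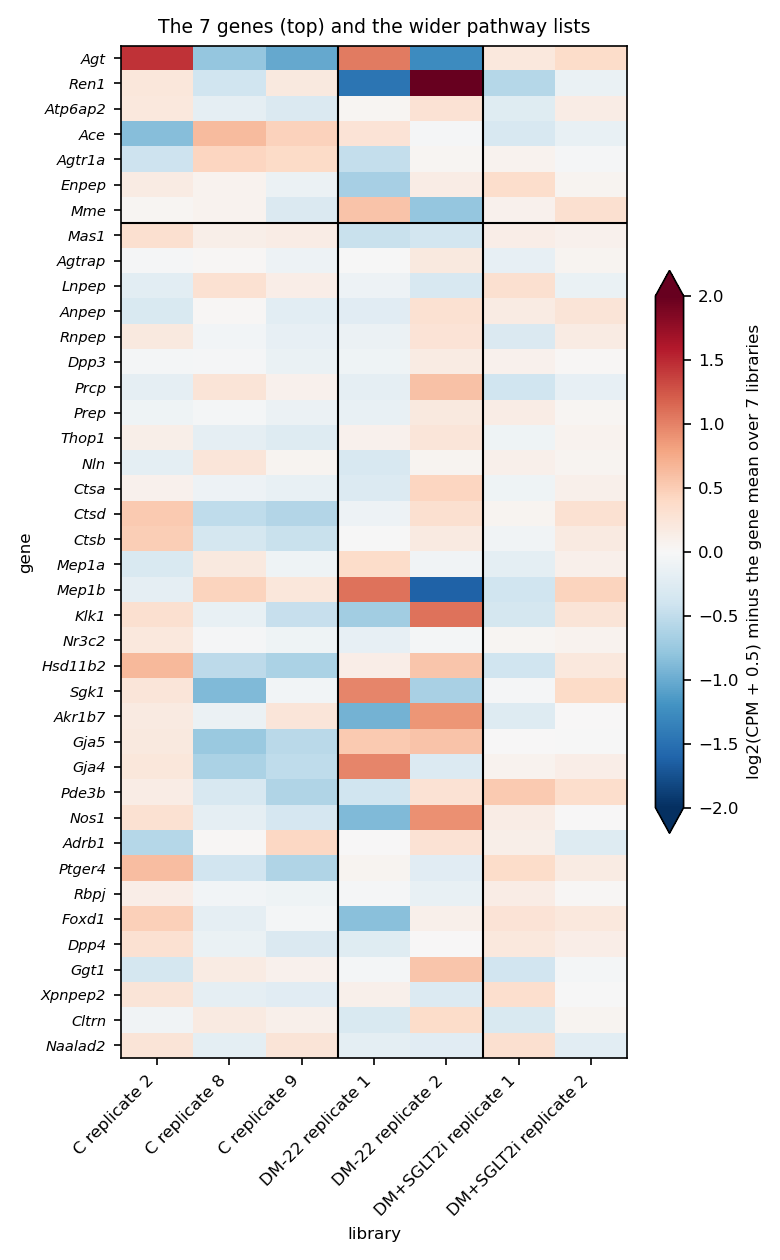
Heat map of log2(CPM + 0.5) minus each gene's mean over the 7 libraries, with the 7 genes above the line and the tested genes of the wider lists under it, and libraries in columns by group (red higher, blue lower, colour capped at 2 log2 units). Ren1, Klk1, Akr1b7 and Nos1 were low in DM-22 replicate 1 and high in replicate 2, while Agt, Mme, Mep1b and Sgk1 had the opposite order in these mice.

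For each gene, the profiles most like it were sought among all tested genes by Pearson correlation of log2(CPM + 0.5) over the 7 libraries, which share their groups and tissue makeup, so that the values are a description. Ccdc3 (r = 0.995) and Hacd4 (r = 0.993) were closest to Agt, and Ccdc3 was at 14.3, 3.56 and 2.99 CPM in control replicates 2, 8 and 9, 11.4 and 2.50 CPM in DM-22 and 5.62 and 7.61 CPM in DM+SGLT2i. E430018J23Rik (r = 0.990) and 2210418O10Rik (r = 0.981) were closest to Ren1, but over a far smaller range, 5.27 to 7.82 CPM for the former. D630029K05Rik and Znrf2 were closest to Ace, Icmt and Rpusd3 to Agtr1a, Bmp6 and Sfrp5 to Enpep, Fam83h and Neurl1b to Mme, and Asna1 and Nutf2-ps1 to Atp6ap2. The share of tested genes with r above 0.9 was 5.90% for Agtr1a, 4.50% for Atp6ap2, 2.93% for Agt, 1.29% for Ace, 0.866% for Mme, 0.501% for Ren1 and 0.379% for Enpep. Among the 7 genes themselves, the strongest relations were those of Ren1 with Mme (r = -0.93) and of Agt with Agtr1a (r = -0.84). The DM-22 mice held both extremes of Ren1 and of Mme, in opposite order, and r without these mice was not computed.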

How the data were processed

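The authors deposited log2 values for 17537 genes in 7 libraries, scaled to library totals and normalized by TMM with a small constant added. Their processing notes name bcl2fastq, FastQC, Trim Galore, STAR and build mm10. Versions, the read counter and its strand setting are not given in the sources used here. Taking the antilogarithm of each value and subtracting that of the lowest value (-4.66, a count of 0) returned CPM, which gave whole reads throughout, within 0.05 of a read. 1 read corresponds to between 0.0180 and 0.0231 CPM. A symbol cell repeating 1 symbol was read as that symbol (61 cells, Ren1 included).

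limma 3.58.1 in R 4.3.3 (lmFit, eBayes with trend) was fitted to log2(CPM + 0.5) for genes reaching 1 CPM in 2 or more libraries, with the 3 groups together, two-sided, Benjamini-Hochberg adjusted over all 13976 genes, threshold 0.05. The labels give no litter or batch, and p-values measure only the spread between these samples. Python 3.11.15 with pandas 2.3.3, numpy 2.4.6 and scipy 1.17.1 served for the exact permutation test of a ratio. The limma test was checked on simulated data, in which no library stood apart from its group. RPKM used exon lengths from GENCODE M21 (GRCm38). Intervals are 95% intervals. Named genes are the 7 genes, genes of the wider lists in the file, and the 2 most alike genes for each. Alternatives were other pseudocounts, filters, scalings and tests, and leaving out each library. The members and lists were chosen with earlier results of these data known. Annotation overlaps Ace with Gm11651, Agtr1a with Gm48161 and Enpep with Gm42628, none of them listed. 1 item of the wider lists is not reported here.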

Additional observations from a re-analysis of the deposited data

How the results depend on the processing

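None of the 7 genes passed the adjusted threshold under any alternative, and of 252 log2 fold changes under other pseudocounts, filters, scalings and tests, 4 changed sign, all near 0. Without TMM factors Agt in DM-22 against C was -0.084 and Ace -0.045. Under limma voom Agt in DM-22 against C was -0.016 and Ren1 in the diabetic libraries against C 0.0074. The cause was not tested. Dropping the TMM factors moved the median of all genes in DM-22 against C from 0.0045 to -0.080. Between DM+SGLT2i and DM-22 it moved from 0.0045 to 0.11. Leaving out 1 library changed the sign of 32 of 196 values.

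With 1 library left out at a time, the counts of genes passing the adjusted threshold ranged from 0 to 2 in DM-22 against C, 0 to 17 in DM+SGLT2i against C and 0 to 28 in the 4 diabetic libraries against C, the highest without control replicate 2 in each case. In DM-22 against C, Ren1 ranged from -1.47 to 2.13, Agt from -1.14 to 1.15, Mme from -0.72 to 0.63 and Enpep from -0.70 to 0.12, all between the fits without 1 or the other DM-22 mouse, and Ace from -0.42 (without control replicate 2) to 0.32. Agtr1a ranged there from -0.63 to -0.096. In DM+SGLT2i against C, Agt ranged from -0.055 to 1.18, Agtr1a from -0.38 to 0.041 and Atp6ap2 from -0.15 to 0.24. In the same comparison Ace ranged from -0.78 to -0.044, Ren1 from -0.57 to -0.13, Enpep from 0.012 to 0.32 and Mme from 0.15 to 0.39. In the diabetic libraries against C, Ren1 ranged from -0.91 to 0.89, Agt from -0.37 to 0.98, Ace from -0.60 to 0.14, Enpep from -0.27 to 0.14 and Mme from -0.22 to 0.45. Between DM+SGLT2i and DM-22, Ren1 ranged from -2.48 to 1.11, Agt from -0.75 to 1.54, Agtr1a from -0.011 to 0.50, Enpep from 0.048 to 0.87 and Mme from -0.36 to 0.98. The log2 ratio of Mme to Enpep ranged from -0.21 to 0.51. A fit that leaves 1 library in a group assumes that it varies like the others.

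With the replicate number as a block (replicate block) in DM+SGLT2i against DM-22, 0 genes passed, with 537 higher and 159 lower at an unadjusted p under 0.05. The differences between replicates 1 and 2 in the groups were unrelated (r = -0.041 over 13976 genes). This value cannot show whether the numbers pair the mice, because paired mice can share little, and the labels give no pairing. Each of the 7 genes was covered by at least 1358 reads per library.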
